A study of Mus musculus with 9 samples.

Results

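The red cell membrane skeleton is represented here by 9 genes, chosen by name from the 20368 genes of the deposited table: Slc4a1, Epb42, Ank1, Sptb, Epb41, Add1, Add2, Tmod1 and Dmtn. All 9 were found. 7 carry these symbols in the table, and Epb41 and Epb42 stand there under older symbols and were identified by Ensembl ID. RNA sequencing was done on CD71+Ter119+ cells sorted from the spleens of C57BL/6 mice aged 4 weeks. CD71 is the transferrin receptor and Ter119 an erythroid surface antigen, and together they mark erythroblasts. There were 3 libraries from wildtype mice, 3 from Dhh heterozygous mice (Dhh+/-) and 3 from Dhh knockout mice (Dhh-/-), where Dhh encodes the ligand Desert hedgehog. The labels give the Dhh allele as whole-animal genotype and name no cell type for its loss, and they do not tie libraries to single animals. The p-values below therefore rest on differences among libraries, which may be technical.

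The membrane of a red cell is held in shape by a flexible net of spectrin tetramers laid under the lipid bilayer. Short actin filaments, capped by tropomodulin and adducin and bundled by dematin, form the junctions of this net, and protein 4.1 strengthens the contact of spectrin with actin. The net is tied to the membrane by ankyrin, which joins beta spectrin to the anion exchanger band 3, with protein 4.2 as a support of that contact. Inherited defects of several of these proteins cause spherocytosis or elliptocytosis, and their genes are switched on as erythroblasts mature.

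The levels are FPKM, reads per kilobase of gene divided by a size factor of the library, so they can be compared between genes. Between 7.05 M and 14.23 M reads per library (M, mega-reads) were recovered from the steps of these values. Replicates 1 and 2 of the wildtype and replicate 2 of each other genotype held 9.66 M reads or fewer and are called the shallower libraries. The other 5 held 13.05 M or more and are called the deeper libraries. The 8 erythroid markers were at 1 FPKM or more in every library. Their summed level was 19995 to 22884 FPKM in the shallower and 10991 to 14385 FPKM in the deeper libraries. Markers of 4 kinds of white blood cell were also present, and their mean on the log2(FPKM + 1) scale was 2.90 in wildtype replicate 3 and 4.50 to 5.92 in the other libraries. B cell markers summed to 70.4 to 1107 FPKM, neutrophil markers to 237 to 1468, megakaryocyte and platelet markers to 33.4 to 54.5 and early progenitor markers to 5.10 to 13.9. The targeted gene, Dhh, does not check the genotype labels: heterozygous replicate 1 held 0.0267 FPKM of it and every other library is listed at 0. In sorted bulk cells, fewer cells of a stage and less RNA per cell cannot be told apart.

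RefSeq promoter windows (GRCm38.p6, the 250 bases before a start site) were found for 6 of the 9 genes: Epb42, Sptb, Epb41, Add1, Add2 and Tmod1. The 4 windows that overlap no annotated exon are shown: those of Add1, Add2 and Sptb and the second of 3 Epb41 windows. No level or difference given below was related to these sequences. Capitals mark 2 words searched on both strands, the GATA word (written AGATAA or else AGATAG, and also TGATAA or else TGATAG) of the erythroid factor Gata1 and the CACCC word of Klf1-type factors, and these words did not overlap each other.
Add1 (chr5:34573414-34573663, plus strand): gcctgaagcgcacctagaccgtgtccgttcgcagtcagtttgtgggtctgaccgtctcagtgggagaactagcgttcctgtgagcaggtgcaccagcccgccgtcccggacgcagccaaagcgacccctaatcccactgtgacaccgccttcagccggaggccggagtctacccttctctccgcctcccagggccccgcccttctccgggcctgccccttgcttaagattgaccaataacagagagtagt
Add2 (chr6:86028431-86028680, plus strand): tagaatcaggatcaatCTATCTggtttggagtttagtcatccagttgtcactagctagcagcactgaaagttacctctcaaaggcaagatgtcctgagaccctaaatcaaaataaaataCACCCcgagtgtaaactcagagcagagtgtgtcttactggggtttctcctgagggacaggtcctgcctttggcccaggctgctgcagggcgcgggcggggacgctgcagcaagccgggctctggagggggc
Sptb (chr12:76710548-76710797, minus strand): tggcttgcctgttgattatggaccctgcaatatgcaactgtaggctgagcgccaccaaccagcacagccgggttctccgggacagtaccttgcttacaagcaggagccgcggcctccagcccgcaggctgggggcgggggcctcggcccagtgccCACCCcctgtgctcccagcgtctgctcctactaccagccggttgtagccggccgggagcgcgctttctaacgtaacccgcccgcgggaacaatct
Epb41, second window (chr4:132072098-132072347, minus strand): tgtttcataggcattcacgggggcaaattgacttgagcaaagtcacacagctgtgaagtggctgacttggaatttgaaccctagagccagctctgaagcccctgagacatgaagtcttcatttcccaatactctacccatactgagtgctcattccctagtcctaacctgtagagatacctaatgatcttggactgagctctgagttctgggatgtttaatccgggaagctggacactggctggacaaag
The Add2 window holds 1 GATA word and 1 CACCC word, the Sptb window 1 CACCC word, and the Add1 and second Epb41 windows neither. The windows not shown overlap exons. Among these, the first Epb41 window and the Epb42 window hold 1 GATA word each, and the Tmod1 window 2 CACCC words. The third Epb41 window holds neither word. A GATA word is present in 26.5% and a CACCC word in 52% of all 32851 windows of this length, so these matches are a description of the letters only.

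All 9 genes were abundant, and their order was nearly fixed from library to library. Slc4a1 (ENSMUSG00000006574, chromosome 11, 102348824 to 102366203, mm10), which encodes the anion exchanger band 3, was at 3689, 3426 and 3323 FPKM in the wildtype libraries, 2899, 3484 and 2961 in the heterozygous ones and 3239, 2994 and 3585 in the knockouts (replicates 1, 2 and 3). It ranked between 2 and 5 among all genes in every library. Epb41, protein 4.1, came second among the 9 in every library, and Epb42, protein 4.2, came next. Sptb stood above Ank1 in 8 of 9 libraries, and Dmtn, Add1, Add2 and Tmod1 followed in that order in all 9. Over the 9 libraries, Sptb (469 ± 37.6 FPKM, mean ± SD, n = 9) and Ank1 (446 ± 36.9), Ank1 and Dmtn (411 ± 35.0), and Dmtn and Add1 (372 ± 42.2) lay closer together than the larger SD of each pair. Between 3417 (Tmod1) and 212229 (Slc4a1) reads stood behind each value.

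**Figure D1:**
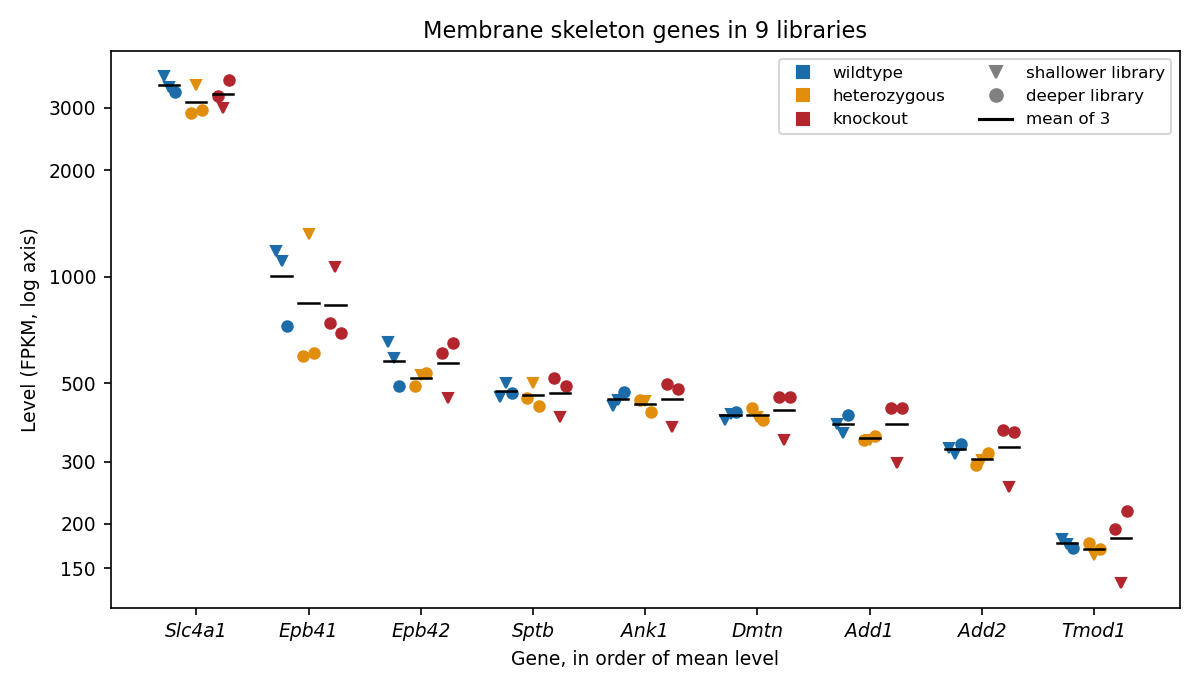
Level of each of the 9 genes (FPKM, log axis) in every library. Colours are genotypes, triangles the 4 shallower and circles the 5 deeper libraries, and bars the mean of 3. Slc4a1 stands highest and Tmod1 lowest, Epb41 splits by depth, and knockout replicate 2 is the lowest point for 7 genes.

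Band 3 and its ankyrin-side contacts overlapped between all genotypes. Epb42 (ENSMUSG00000023216, chromosome 2, 121017891 to 121037072), which steadies the contact of band 3 with ankyrin, was at 655, 588 and 489.6 FPKM in the wildtype libraries, 489.5, 526 and 533 in the heterozygous ones and 607, 453 and 651 in the knockouts. Ank1 (ENSMUSG00000031543, chromosome 8, 22974844 to 23150497), the ankyrin that ties spectrin to band 3, was at 432, 447 and 472 FPKM in the wildtype libraries, 449, 446 and 413 in the heterozygous ones and 498, 375 and 481 in the knockouts. Ank1 and Epb42 were both lowest in knockout replicate 2, and Slc4a1 was lowest in heterozygous replicate 1. Slc4a1 was 6.46 to 8.53 times as high as Ank1, per length, and 5.33 to 6.79 times as high as Epb42.

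Beta spectrin varied little between genotypes. Sptb (ENSMUSG00000021061, chromosome 12, 76580488 to 76710547), which encodes that chain of the net, was at 457, 499.5 and 468 FPKM in the wildtype libraries, 453, 502 and 430.3 in the heterozygous ones and 518, 401 and 491 in the knockouts. The 3 genotypes overlapped, with the lowest level in knockout replicate 2 and the highest in knockout replicate 1. The ratio of Ank1 to Sptb lay between 0.89 and 1.01 in the 9 libraries, with a wildtype mean of 0.950 ± 0.0564 (SD, n = 3), a heterozygous mean of 0.947 ± 0.0519 and a knockout mean of 0.959 ± 0.0234.

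Add1, Add2, Dmtn and Tmod1, of the actin junctions, shared their lowest library. Add1 (ENSMUSG00000029106, chromosome 5, 34573664 to 34632308), alpha adducin, was at 382, 362 and 407 FPKM in the wildtype libraries, 345.5, 345.4 and 355 in the heterozygous ones and 425, 298 and 425 in the knockouts. Add2 (ENSMUSG00000030000, chromosome 6, 86028681 to 86124409), the beta adducin with which it pairs on the ends of actin filaments, was at 327, 315 and 337 FPKM in the wildtype libraries, 294, 303 and 318 in the heterozygous ones and 369, 255 and 363 in the knockouts. Both were lowest in knockout replicate 2 and highest in the other knockout libraries, and Add1 but not Add2 was lower in each heterozygous than in each wildtype library. Dmtn (ENSMUSG00000022099, chromosome 14, 70601263 to 70636048), dematin, which bundles actin, was at 395, 409 and 414 FPKM in the wildtype libraries, 426, 399.8 and 392 in the heterozygous ones and 458.0, 345 and 457.8 in the knockouts. Tmod1 (ENSMUSG00000028328, chromosome 4, 46038935 to 46116032), tropomodulin, which caps the slow-growing end of actin, was at 182, 176 and 171 FPKM in the wildtype libraries, 176, 163 and 169.6 in the heterozygous ones and 194, 137 and 217 in the knockouts. The wildtype and heterozygous libraries of Dmtn and Tmod1 overlapped, and the knockout libraries lay on both sides of them.

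Of all 9542 genes tested beside Add1, Add2 had the profile most like it over the 9 libraries (Pearson r = 0.982, Spearman rho = 0.95, exact permutation p = 2.2e-05 and 0.000353, adjusted over the 36 pairs of the 9 genes 0.000794 and 0.00635). Without the 2 libraries whose Add1 level lay farthest from the median, r was 0.954. The ratio of Add1 to Add2 stayed between 1.12 and 1.21. Ank1 and Dmtn were the next closest pair (r = 0.949, rho = 0.983, exact permutation p = 0.000168 and 4.96e-05, adjusted 0.00303 and 0.00179). Their r was 0.817 without the 2 libraries farthest from the median of Ank1, and Dmtn was the fifth closest gene to Ank1. Over the 28 pairs that leave out Epb41, r ran from 0.297 (Slc4a1 with Dmtn) to 0.982, with a median of 0.738. Of all 36 pairs, 14 passed an adjusted permutation p of 0.05 by Pearson r and 2 by Spearman rho. Leaving out the 2 farthest libraries lowered the median of the 28 to 0.616 and the lowest to 0.152 (Sptb with Add2). These 2 libraries were chosen by the level of the first gene of each pair, so they can differ between pairs. Cutting the range of that gene tends to lower r by itself. The drop therefore cannot show which relations rest on particular libraries. All of these values come from the same libraries and share their size factors and their mix of cells. The permutations treated the 9 libraries as exchangeable, although these differ in genotype and form 2 clusters in depth. The permutation p-values therefore do not separate a link between 2 genes from such shared differences. By the rule used for likeness, the genes nearest to the mean of the 9 included Med12 (r = 0.948), Rsph10b (0.926), Ranbp10 (0.914) and Sec23a (0.912), out of 9534 genes and over 9 libraries.

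**Figure D2:**
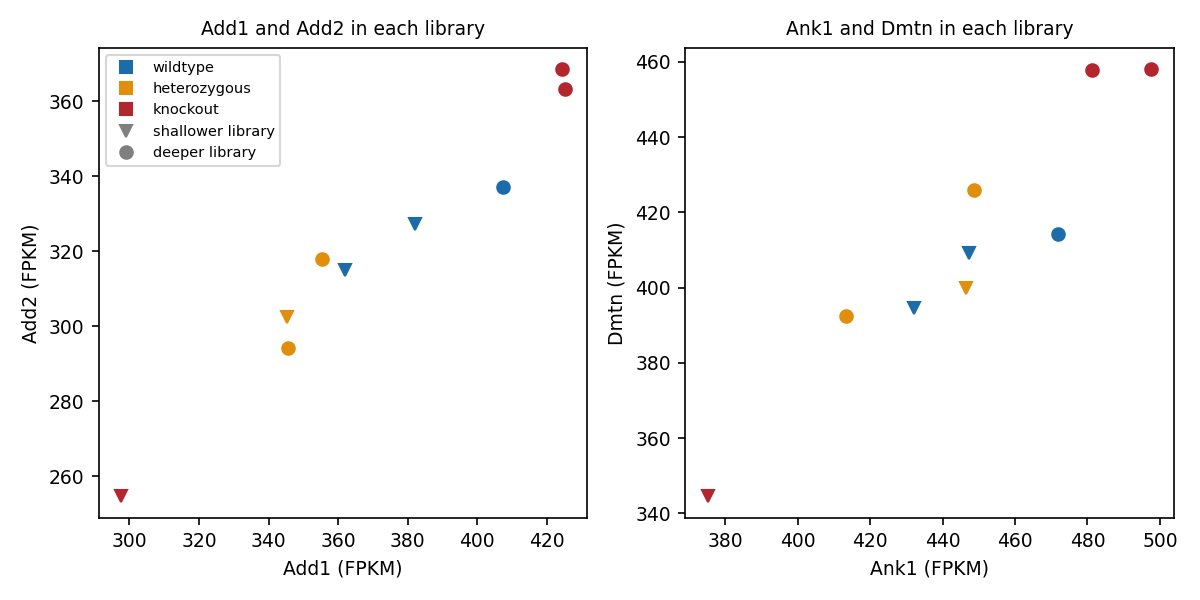
Level (FPKM) of Add1 against Add2 and of Ank1 against Dmtn, 1 point per library, coloured by genotype and shaped by depth. In both panels the points fall near a line, with knockout replicate 2 at the low end and knockout replicates 1 and 3 at the high end.

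Epb41 was the 1 gene of the 9 whose levels split by library depth. Epb41 (ENSMUSG00000028906, chromosome 4, 131923413 to 132075321), which encodes protein 4.1, was at 1179, 1110 and 725 FPKM in the wildtype libraries, 598, 1324 and 609 in the heterozygous ones and 740 (replicate 1), 1068 (replicate 2) and 693 (replicate 3) in the knockouts. The 4 shallower libraries held 1068 to 1324 FPKM and the 5 deeper ones 598 to 740, and these ranges did not overlap although both depths hold all genotypes. Of all 9543 genes tested, 5.66% were higher and 6.86% lower in every shallower than in every deeper library. Its r with the other 8 ran from -0.481 (Dmtn) to 0.536 (Slc4a1), given as a description only, since the libraries form 2 clusters in depth.

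**Figure D3:**
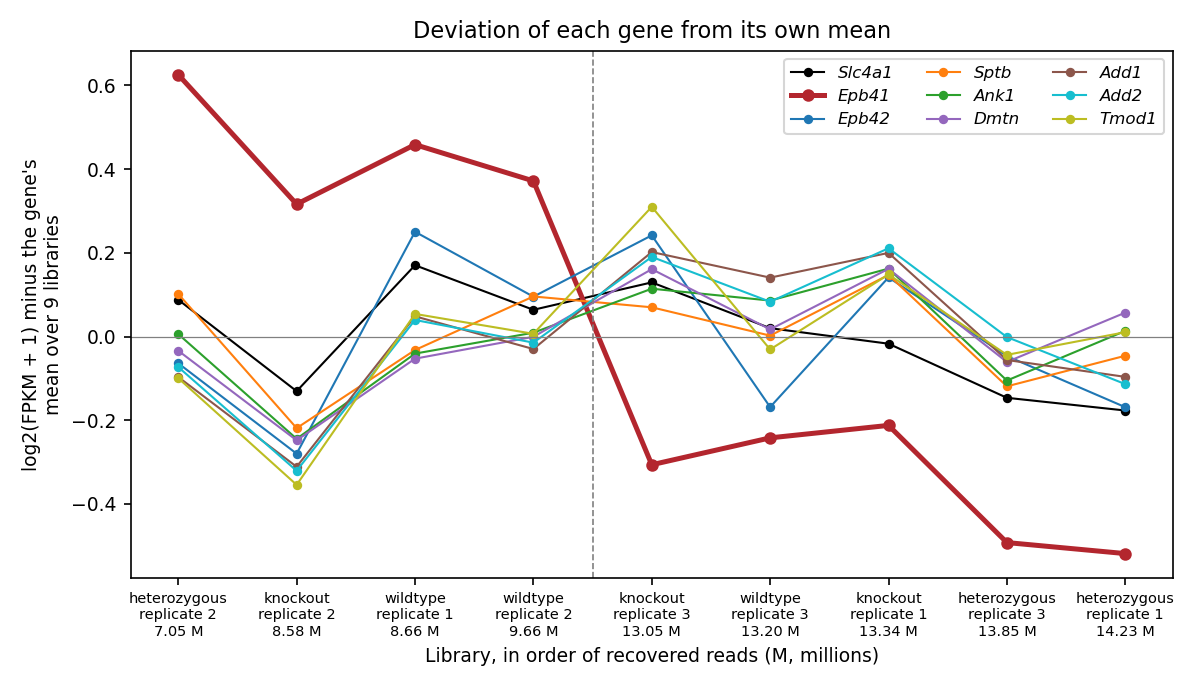
Deviation of each gene from its own mean over the 9 libraries (log2(FPKM + 1)), with the libraries in order of recovered reads and a dashed line between the 4 shallower and the 5 deeper. Epb41 (thick red line) is above its mean in the shallower and below it in the deeper libraries, and most other genes dip together in knockout replicate 2.

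The reads behind Epb41 barely changed with depth. Wildtype libraries had 70839, 75296 and 67106 reads of it, heterozygous libraries 65519, 66841 and 64380, and knockout libraries 69620, 69877 and 62439. The highest of these was 1.21 times the lowest, while the libraries as a whole differed 2.02-fold. Among the 1369 genes with at least 1000 reads in every library, only Hba-a1, an alpha globin gene, was steadier (1.14-fold), and the median gene differed 2.41-fold between its highest and lowest library. Since FPKM divides reads by the size factor, a gene with steady reads has a level that runs against depth. The genes with the highest r with Epb41 over the same 9 clustered libraries, chosen after their values were seen, included both alpha globin genes, Fech, the last enzyme of heme synthesis, and Rnf10 and Dcaf12. Fech was at 1451 to 1643 FPKM in the shallower and 973 to 1201 FPKM in the deeper libraries, and Hba-a1 at 2889 to 3674 and 1677 to 2070 FPKM.

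**Figure D4:**
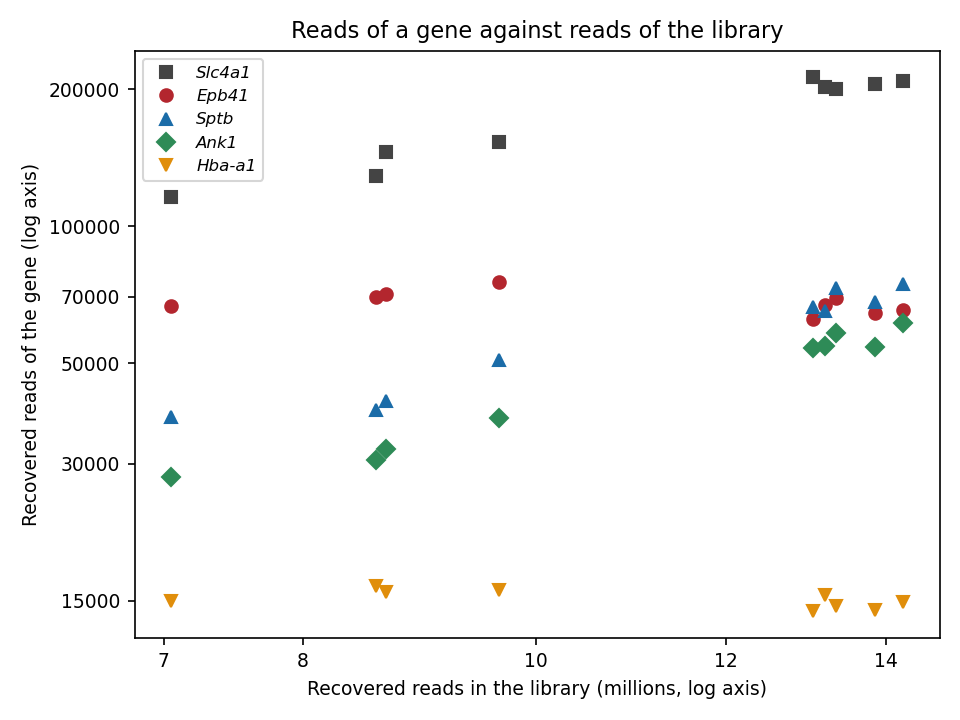
Recovered reads of 5 genes against the recovered reads of the library (M), both on log axes, 1 point per library. Slc4a1, Sptb and Ank1 climb with library depth, and Epb41 and Hba-a1 stay level.

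The split of Epb41 went with other differences between the libraries, and their part in it was not tested. T cell markers summed to 57.6 to 68.5 FPKM in the shallower and 8.38 to 35.2 FPKM in the deeper libraries, and globin genes took 4.14% to 5.06% and 2.52% to 2.86% of all FPKM. Macrophage markers overlapped, at 549 to 1124 FPKM in the shallower and 83.4 to 631 FPKM in the deeper libraries. Within the deeper libraries Epb41 was at 725 FPKM in the 1 wildtype library, 598 and 609 in the 2 heterozygous and 740 and 693 in the 2 knockout libraries. Within the shallower libraries it was at 1179 and 1110 FPKM in wildtype, 1324 in the heterozygous and 1068 in the knockout library. The fit with depth as a term is given with the genotype comparisons. The table holds 1 value per gene, so splice forms and start sites of Epb41 are not separated. Reads of genes that overlap it, such as Gm10300 on the other strand, cannot be told apart from its own, since the strand setting is not given in the sources used here. The same holds for Sptb with Plekhg3 (0.377 to 2.70 FPKM) and for Tmod1 with Tstd2 (1.64 to 3.17 FPKM), both on the opposite strand.

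None of the 9 genes passed the test in any comparison of genotypes. Limma called 0 of 9 in the knockout against the wildtype libraries, 0 of 9 in the heterozygous against the wildtype, and 0 of 9 in the knockout against the heterozygous (Benjamini-Hochberg adjusted p below 0.05 over all genes), against 0% of the 9543 genes tested in each comparison. The lowest adjusted p of any gene was 0.9997, 0.9999 and 0.9996 in that order. At an unadjusted p below 0.05 there were 0 of the 9 in each comparison, and 0.451%, 1.18% and 0.587% of all genes. Voom on the recovered reads also called 0 genes in each.

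Between knockout and wildtype the log2 differences were -0.09 ± 0.14 (SE) for Slc4a1, -0.02 ± 0.13 for Sptb, -0.02 ± 0.15 for Add1 and 0.02 ± 0.16 for Tmod1. The 9 ranged from -0.26 (Epb41) to 0.04 (Dmtn), with a median of -0.02 against 0.01 for all genes tested. The 95% intervals lay within a 1.5-fold change for the 8 genes other than Epb41, whose interval ran from -1.01 to 0.49. For Slc4a1 the SE was larger without the filter on low values (0.25) and under quantile normalization (0.24). Its limits are wider there and need not lie within 1.5-fold. Epb41 differed by -0.10 with depth as a term and by -0.48 (without wildtype replicate 3) to -0.13 (without wildtype replicate 1) with 1 library left out. Knockout and wildtype libraries overlapped for all 9, while 2.48% of all genes did not overlap (1.08% higher and 1.40% lower in knockout). The signs depend on the scaling: 2 genes were higher and 7 lower as fitted, and 8 were higher after quantile normalization.

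Between heterozygous and wildtype all 9 differences were at or below 0, from -0.32 ± 0.33 (Epb41) to -0.0004 ± 0.13 (Dmtn), with a median of -0.10 against -0.0020 for all genes, and 8 of the 9 turned positive under quantile normalization. Slc4a1 differed by -0.16 ± 0.14 and Add1 by -0.14 ± 0.15. Add1 was the 1 gene of the 9 whose groups did not overlap, at 345 to 355 FPKM in heterozygous and 362 to 407 FPKM in wildtype libraries, and 4.36% of all genes did not overlap (1.29% higher and 3.07% lower in heterozygous). With 3 against 3 libraries, an exact permutation test cannot give a p below 0.1. In the main fit the 95% intervals of the same 8 genes lay within 1.5-fold, and that of Epb41 ran from -1.07 to 0.43. The SE of Slc4a1 was again larger without the filter on low values (0.25) and under quantile normalization (0.24). Its limits need not lie within 1.5-fold there. With library depth as a term, Epb41 differed by -0.20 ± 0.08, and without heterozygous replicate 2, its 1 shallower library of that genotype, by -0.70 ± 0.26. Both passed an unadjusted p of 0.05, and neither passed the adjusted threshold in limma (adjusted p = 0.999 and 1.00). Of all genes, 2.60% passed that unadjusted p with depth as a term and 1.33% without heterozygous replicate 2.

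Between knockout and heterozygous all 9 differences were positive, from 0.02 ± 0.13 (Sptb) to 0.13 ± 0.17 (Epb42), with a median of 0.07 against 0.0037 for all genes, and 6 of the 9 turned negative under quantile normalization. The groups overlapped for all 9, while 4.48% of all genes did not overlap (2.61% higher and 1.88% lower in knockout). This comparison and the previous one share the heterozygous libraries, so their opposite signs are not separate observations.

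**Figure D5:**
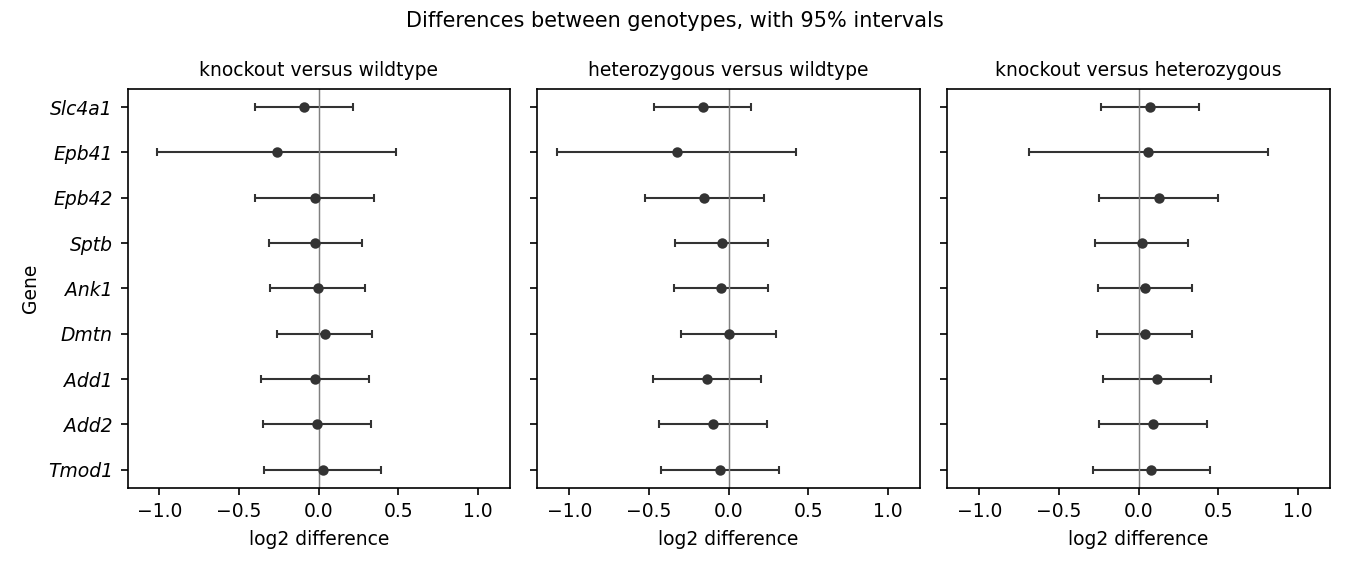
Difference between genotypes in log2(FPKM + 1) for each of the 9 genes, with the 95% interval from limma, 1 panel per comparison. Every interval crosses 0, and the interval of Epb41 is the widest in each panel.

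1 knockout library stood apart from the other 2. It was also the 1 shallower library of that genotype, at 8.58 M reads against 13.34 M and 13.05 M. Knockout replicate 2 was the lowest of all 9 libraries for 7 of the 9 genes, and knockout replicate 1 or 3 was the highest for 6 of these 7. Among all genes tested, 19.5% were lowest in knockout replicate 2 and 9.13% also highest in one of the other knockout libraries. Tmod1 in knockout replicate 2 was 0.665 times the mean of the other knockout libraries, Add1 0.70 times, and Epb41 went the other way at 1.49 times. The SD on the log2 scale was largest in knockout for 7 of the 9 genes and in wildtype for 0, against 31.2% and 56.8% of all genes. The median SD of the 9 was 0.277 in knockout, 0.0663 in wildtype and 0.0661 in heterozygous libraries.

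Without knockout replicate 2, the differences of Add1, Add2 and Tmod1 between knockout and heterozygous were 0.28, 0.26 and 0.27. These 3 passed an unadjusted p of 0.05, as did 5.29% of all genes, and none passed the adjusted threshold in limma (adjusted p = 0.906 for each, 0 genes called). Between knockout and wildtype the same 3 stood at 0.15, 0.16 and 0.22, and 7 of the 9 differences were then positive. Knockout replicate 2 was singled out after its low levels were seen, and leaving out the lowest library raises a knockout mean by itself. The 3 genes also varied together (r = 0.881 to 0.982), so they are not separate observations. The knockout libraries left were all deeper, while the heterozygous libraries held both depths. Knockout replicate 2 had the highest macrophage markers (1124 FPKM) and a mean of white blood cell markers of 5.92 on the log2(FPKM + 1) scale. Wildtype replicate 1 had the same mean of 5.92, and none of the 9 genes was lowest there. For the 7 genes lowest in knockout replicate 2, r with that mean over the libraries was as follows. It was -0.592 for Ank1, -0.563 for Add1, -0.477 for Add2, -0.475 for Dmtn, -0.269 for Tmod1, -0.255 for Sptb and 0.204 for Epb42. With the log2 of recovered reads, r was 0.579 for Dmtn, 0.496 for Add1, 0.494 for Tmod1 and 0.479 for Add2. It was 0.438 for Ank1, 0.0243 for Sptb and 0.0232 for Epb42. Among the knockout libraries, what is particular to replicate 2 cannot be told apart from its lower depth. The parts of white blood cells and of depth in the low values were not tested.

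The 27 other genes of the membrane skeleton and its anchors were described in the same way. 26 passed the filter of 1 FPKM in 3 libraries, all but Bcam, and limma called 0 of the 26 in each comparison. Their median log2 differences for knockout against wildtype, heterozygous against wildtype and knockout against heterozygous were 0.01, -0.02 and 0.05. Among the most abundant was Rhd, a Rh protein, with a wildtype mean of 1134 ± 31.8 FPKM (SD, n = 3), a heterozygous mean of 1025 ± 98.3 and a knockout mean of 1136 ± 202. In the same order, Kel, the Kell antigen, was at 855 ± 73.2, 826 ± 28.0 and 906 ± 185, and the water channel Aqp1 at 808 ± 116, 739 ± 55.1 and 771 ± 137. 9 of the 26 were lowest in knockout replicate 2, among them Rhd, Kel and Aqp1, against 19.5% of all genes tested. Mpp1, a scaffold of the protein 4.1 complex, was the 1 gene of the 26 that lay higher in every shallower library (418 to 447 against 269 to 337 FPKM), and Icam4, an adhesion protein, the 1 that lay lower (87.4 to 120 against 122 to 166 FPKM). Both were singled out after their values were seen, and 5.66% and 6.86% of all genes tested split in these directions.

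The erythroid genes made up most of the summed level of each chosen list of relatives. Beside the anion exchangers, the lists held 3 ankyrins, 4 beta spectrins, 7 genes of the protein 4.1 family and 3 adducins. The others held 7 headpiece genes, 4 tropomodulins and 3 transglutaminases. All counts include the erythroid genes, and the lists need not be whole families. Slc4a1 took 99.8% of the summed FPKM of 3 anion exchangers in every library, Ank1 at least 99.9% of the ankyrins and Sptb 99.0% to 99.8% of the beta spectrins. Epb41 took 97.8% to 99.6% of the protein 4.1 family, Add1 and Add2 together 98.3% to 99.6% of the adducins, Dmtn 95.3% to 98.0% of the headpiece family and Tmod1 94.3% to 97.1% of the tropomodulins. Epb42, a relative of the transglutaminases that has lost the enzyme activity, took 88.7% to 94.0%, beside Tgm2 at 39.7 to 51.9 FPKM.

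Most paralogs that passed the filter were lowest in the library with the lowest mean of white blood cell markers. Of 12 paralogs that passed the filter, 10 were lowest in wildtype replicate 3, where the mean of those markers was lowest, against 0 of the 9 erythroid genes and 24.7% of all genes tested. For Sptan1, a spectrin of most nucleated cells, wildtype replicate 3 had 0.898 FPKM and the rest 3.38 to 9.30 FPKM. Sptbn1, its partner chain, was at 0.278 FPKM there and 1.40 to 3.76 FPKM elsewhere. Slc4a2 and Tgm2 were the exceptions, and Svil, 1 of the 10, varied little (8.16 to 9.60 FPKM). Whether these paralogs came from other cells was not tested.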

How the data were processed

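The RNA sequencing data are 1 table, with 9 library columns. Tools named in the submitters' processing notes are TopHat, DESeq2 and Picard, and the genome build there is mm10; no role is stated for any of them. The authors deposited FPKM-type values. The file does not tell FPKM from RPKM, and the sources used here do not give the annotation, the strand setting or the read pairing. For all 14147 genes above 0 in at least 2 libraries, the values were whole multiples of a step per gene (within 0.05 of a read), and the library factors were those of the median-of-ratios method (11276 genes). Reads were recovered from these steps. Positions come from GENCODE M21 on the same build, which matched 98.3% of the rows.

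The filter kept 9543 genes that reached 1 FPKM in 3 or more libraries, tested as log2(FPKM + 1) with limma 3.58.1 in R 4.3.3 (lmFit, eBayes with a trend), 1 mean per genotype over 9 libraries, and Benjamini-Hochberg adjustment over all genes. The test was tried on simulated data. Voom on recovered reads, other filters, pseudocounts and scalings, 2 covariates, a replicate block and each library left out were alternatives. Same-numbered knockout and heterozygous libraries deviated together (correlations 0.20, 0.18 and 0.41), though no label states that they are paired. Between knockout and wildtype the correlations were -0.57, 0.51 and 0.33, and between heterozygous and wildtype 0.13, 0.18 and 0. Same-numbered knockout and heterozygous libraries also matched in depth: replicates 1 and 3 were deeper and replicate 2 shallower. Wildtype replicate 1 was shallower and broke that match. The part of depth in these correlations was not tested. The main fit used no pairing in any comparison, and the replicate block was run as an alternative for every comparison. Python 3.11.15 was used for the other steps.

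The 9 genes, the lists and the rules were chosen with earlier results of these data known. The text names all 9 genes, the most abundant partners, paralogs at 1 FPKM or more in 3 libraries, and the 5 genes most like the mean of the 9 by Pearson r. Some items under this rule are not reported here. The marker lists were erythroid, B cell, T cell, macrophage, neutrophil, megakaryocyte and early progenitor.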

Additional observations from a re-analysis of the deposited data

How the results depend on the processing

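Limma called 0 of the 9 genes and 0 genes in all in each comparison under every alternative run, with each library of a comparison left out in turn too. The replicate block changed no call (0 genes called in each comparison, with the log2 difference of Epb42 between knockout and heterozygous at 0.13). At least 3417 reads stood behind each value, which bears on counting error only, and Epb41 split by depth: knockout minus wildtype was -0.264 ± 0.332 (SE) as fitted and -0.104 ± 0.0853 with depth as a term. Leaving out 1 library gave -0.483 to -0.132 for it in that comparison and -0.702 to -0.13 in heterozygous minus wildtype. What limits the comparisons is the spread between libraries and the scaling: voom moved the median of all genes by 0.11 between heterozygous and wildtype. The order of the 9 mean levels held with any 1 library left out. The signs of small differences turned under some alternatives, with no call gained, and the cause was not tested. Under quantile normalization, knockout minus wildtype was 0.195 for Slc4a1, 0.0673 for Epb42, 0.0552 for Ank1, 0.0608 for Sptb, 0.0644 for Add1 and 0.055 for Add2. Under quantile normalization, heterozygous minus wildtype was 0.195 for Slc4a1, 0.0742 for Epb42, 0.138 for Ank1, 0.159 for Sptb, 0.0491 for Add1, 0.0678 for Add2, 0.106 for Tmod1 and 0.193 for Dmtn. Under quantile normalization, knockout minus heterozygous was -0.0069 for Epb42, -0.0825 for Ank1, -0.0978 for Sptb, -0.0128 for Add2, -0.0289 for Tmod1 and -0.0884 for Dmtn. Voom on recovered reads gave 0.0177 for Epb42, 0.0327 for Ank1, 0.0178 for Sptb, 0.0177 for Add1 and 0.0316 for Add2 (knockout minus wildtype). The median of all genes was 0.0491 there. Voom on recovered reads gave 0.0532 for Ank1, 0.0565 for Sptb, 0.0017 for Add2, 0.0472 for Tmod1 and 0.101 for Dmtn (heterozygous minus wildtype), against 0.104 for the median of all genes. Voom on recovered reads gave -0.0205 for Ank1, -0.0387 for Sptb and -0.0229 for Dmtn (knockout minus heterozygous), against -0.0717 for the median of all genes. Depth as a term gave -0.0105 for Tmod1 (knockout minus wildtype). The mean of the white blood cell markers as a term gave 0.0185 for Ank1, 0.0095 for Add1 and 0.0177 for Add2 (knockout minus wildtype). The mean of the white blood cell markers as a term gave 0.0194 for Dmtn (heterozygous minus wildtype). Leaving out each library in turn gave -0.139 to 0.133 for Epb42, -0.0832 to 0.12 for Ank1, -0.0964 to 0.0867 for Sptb, -0.109 to 0.148 for Add1, -0.101 to 0.165 for Add2, -0.113 to 0.219 for Tmod1 and -0.0313 to 0.174 for Dmtn (knockout minus wildtype). Leaving out each library in turn gave -0.104 to 0.006 for Sptb and -0.0352 to 0.0238 for Dmtn (heterozygous minus wildtype). Leaving out each library in turn gave -0.0364 to 0.167 for Ank1, -0.0534 to 0.13 for Sptb, -0.134 to 0.438 for Epb41, -0.0026 to 0.263 for Add2, -0.0588 to 0.273 for Tmod1 and -0.031 to 0.174 for Dmtn (knockout minus heterozygous).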
